A study of Mus musculus with 8 samples.

Results

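A set of 10 immediate early genes is described here in splenic CD8+ T cells and natural killer (NK) cells that lack TYK2, a Janus kinase that carries signals from the receptors for type I interferon and interleukin-12. They are *Fos*, *Fosb*, *Jun*, *Junb* and *Jund*, which code for AP-1 subunits, *Egr1*, *Egr2* and *Nr4a1*, which code for other transcription factors, *Dusp1*, which codes for a phosphatase, and *Ier2*. The genes were chosen by name as a set of early activation response genes, and the 10 members were found among the 54232 gene IDs of the count table. RNA was sequenced from NK cells and CD8+ T cells that were sorted by flow cytometry from spleens of *Tyk2*-/- mice on a C57BL/6 background by the labels and C57BL/6N by the study's methods, 8 to 12 weeks old, with 3 libraries for each cell type. Both groups carried the knockout and both were homeostatic, meaning that the cells were neither treated nor cultured. Wild-type CD8+ T cells were not used here, because their columns could not be tied to labelled samples, so the comparison was NK cells against CD8+ T cells within the knockout. The study's methods list *Tyk2*-/- mice with and without a CMV-cre transgene and do not say which supplied these spleens, and littermates were pooled to obtain enough cells.

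Immediate early genes are transcribed within minutes of a stimulus, without new protein synthesis, by factors that are already in the nucleus, such as SRF with its ternary complex factors and CREB. ERK, p38 and calcium signals activate those factors, the messenger RNAs are short-lived, and feedback proteins such as the DUSP phosphatases switch the kinases off again. In T and NK cells these genes answer antigen receptor, cytokine and adhesion signals, and they are also known to rise when tissue is dissociated and cells are sorted. In the protocol the spleens were kept in cold buffer and pressed through a mesh, red cells were lysed for 5 min on ice and cells were spun at 4 °C. The protocol names no inhibitor of transcription.

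Each library was made from 500 pg of total RNA and read as 50-base single ends. Counts assigned to genes summed to between 20957384 and 26144478 per CD8+ T cell library, while NK libraries were deeper, between 32848432 and 38573550. The libraries of each cell type are called library 1 to 3 after the running numbers of the table's columns. The labels do not link a CD8+ T cell library to the NK library of the same number. *Tyk2* itself had 105, 919 and 554 counts in CD8+ T cells against 3864, 4245 and 3207 in NK cells, which were counted over the whole gene and do not show whether the deleted part was read. Normalised counts of the 5 CD8 T cell markers (*Cd8a*, *Cd8b1*, *Cd3d*, *Cd3e*, *Cd3g*) summed to between 227019 and 268059 in CD8+ T cells, against between 7935 and 13546 in NK cells. Those of the 5 NK markers (*Ncr1*, *Klrb1c*, *Klrk1*, *Eomes*, *Tyrobp*) summed to between 1219 and 2196 in CD8+ T cells, against between 461798 and 515335 in NK cells, so that each list was far higher in the cells it names. The 9 myeloid markers summed to between 2113 and 5014 in CD8+ T cells, against between 30303 and 54936 in NK cells. Nearly all of that was *Ly6c2*. *Cd68* had 1, 55 and 147 counts in CD8+ T cells against 883, 633 and 235 in NK cells and *Itgam* 1, 0 and 0 against 477, 367 and 344, while *Lyz2* and *Csf1r* stayed at or below 43 and 22 counts and *Adgre1*, *S100a8*, *S100a9* and *Csf3r* had 0 in every library. Sums were at most 752 for the 5 dendritic cell markers, mainly *Zbtb46* and *Siglech* with *Flt3* at 1 count or fewer, at most 36.0 for *Cd4* and *Foxp3*, and at most 235 for the 8 erythroid and platelet markers, among them *Hba-a1* and *Hba-a2*. B cell markers are given below beside the genes they moved with.

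Levels of the AP-1 genes are given as normalised counts, which are counts scaled to the same effective library size. AP-1 is a dimer of a FOS and a JUN protein, or of JUN proteins alone, that binds the promoters and enhancers of activation genes. *Fos* (ENSMUSG00000021250, GRCm38 chromosome 12, 85473890 to 85477273, plus strand, 4 exons), the inducible partner of JUN, was at 4115 and 3641 normalised counts in CD8+ T cell libraries 1 and 2 and at 0.968 in library 3, where it had 1 raw count. In NK libraries 1, 2 and 3 *Fos* stood at 7.78, 296 and 0. *Fos* was thus abundant in 2 CD8+ T cell libraries and all but missing from the other, NK cells held it mainly in library 2 with values near 0 in the other 2, and the groups overlapped.

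*Fosb* (chromosome 7, 19302696 to 19310051, minus strand), a close relative of *Fos*, had 73 counts in CD8+ T cell library 2 and 0 in the other 5 libraries. It passed the filter on low values through that library alone, and no fold change is given for it. Zero counts in a library allow up to 3, which is between 2.51 and 3.68 normalised counts, for counting error only.

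*Jun* (chromosome 4, 95049034 to 95052222, minus strand, a gene without introns), the founding partner of FOS, measured 2725, 513 and 0 normalised counts in CD8+ T cell libraries 1, 2 and 3 and 1131, 1402 and 740 in NK libraries 1, 2 and 3. The CD8+ T cell libraries enclosed the NK libraries at both ends, and NK cells held *Jun* in every library. Reads of *Jun* cannot be told apart from those of its antisense neighbour *Junos*, with which it shares exon sequence, because the library kit does not mark strand. *Junb* (chromosome 8, 84974484 to 84978718, minus strand), an AP-1 subunit of lymphocytes that is also made at rest, reached 3935, 2133 and 1118 in CD8+ T cells against 1690, 1957 and 1602 in NK cells. All libraries had it, and the groups overlapped. *Jund* (chromosome 8, 70698949 to 70700616, plus strand), the least inducible JUN gene, was at 198, 249 and 406 in CD8+ T cells against 449, 462 and 458 in NK cells. The groups did not overlap, with NK cells above, and the 3 NK values were nearly equal. The antisense gene *Gm11175* shares exon sequence with *Jund*, with the same limit on strand.

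Among the other transcription factors, *Egr1* (chromosome 18, 34859823 to 34864984, plus strand), a zinc finger factor downstream of ERK and SRF, measured 952, 244 and 712 normalised counts in CD8+ T cells against 499, 659 and 984 in NK cells. It was present in every library, with overlapping groups. *Egr2* (chromosome 10, 67535475 to 67542188, plus strand), a relative that restrains T cell activation, measured 2597, 1.23 and 60.0 in CD8+ T cells against 50.6, 241 and 39.6 in NK cells. One CD8+ T cell library therefore carried nearly all *Egr2* of its group, and the other 2 were within or below the range of the NK libraries. *Nr4a1* (chromosome 15, 101254269 to 101274795, plus strand), the orphan nuclear receptor NUR77 that is widely used as a reporter of antigen receptor signals, was at 1.22, 66.2 and 0.968 in CD8+ T cells against 1256, 179 and 988 in NK cells. All 3 NK libraries were above all 3 CD8+ T cell libraries, of which library 1 and library 3 each held 1 raw count.

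Of the remaining pair, *Dusp1* (chromosome 17, 26505590 to 26562128, minus strand), a nuclear phosphatase that inactivates p38 and JNK, measured 3502, 1391 and 0.968 normalised counts in CD8+ T cells against 454, 591 and 62.9 in NK cells. As for *Fos*, CD8+ T cell library 3 held a single raw count, and the NK libraries lay between the extremes. *Ier2* (chromosome 8, 84661331 to 84662852, minus strand), a rapidly induced nuclear protein, was at 9109, 5297 and 7679 in CD8+ T cells against 6773, 11409 and 8840 in NK cells. It was abundant in all 6 libraries and the groups overlapped. No member shared any 50-base stretch of its transcripts with transcripts of another gene on the same strand, which leaves the antisense overlaps of *Jun* and *Jund* given above.

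**Figure D1:**
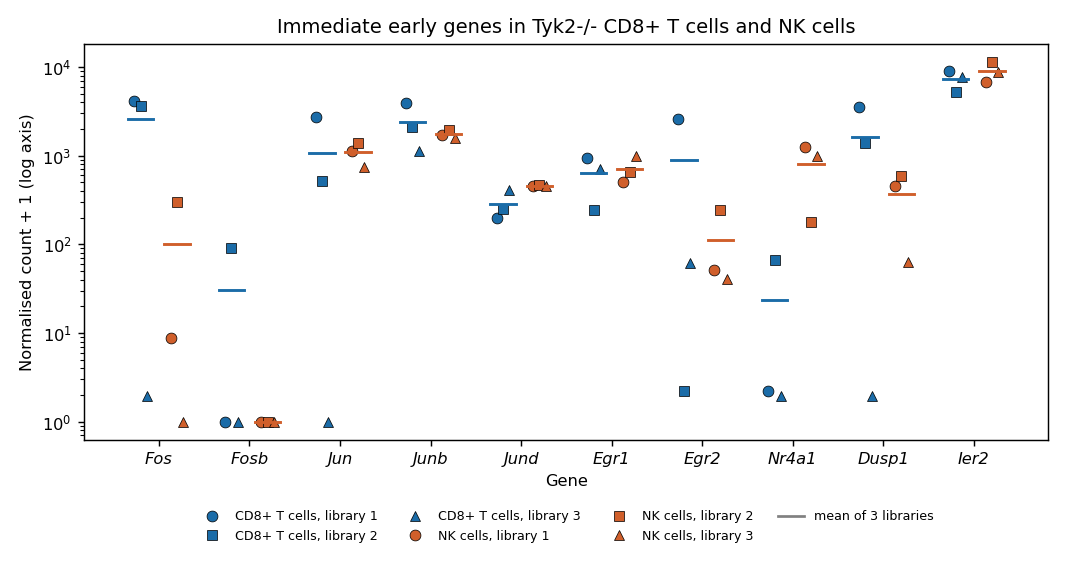
Normalised counts plus 1 (log axis) of the 10 genes in each library, with points for the 3 CD8+ T cell and the 3 NK libraries. *Ier2* and *Junb* are high in all 6 libraries, while *Fos*, *Jun*, *Dusp1* and *Egr2* run from their highest values down to 1 count or none among the CD8+ T cell libraries, and *Nr4a1* is the gene with the widest gap between the groups.

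Promoter sequence is shown around 1 match for each member whose promoter held the letters TGACG and had a single entry, because CREB, a factor named in the background above, binds those letters and their full palindrome TGACGTCA. Windows of 50 bases were read from RefSeq promoters (GRCm38.p6, 250 bases before to 50 bases after the start), which had an entry for 8 of the 10 members, with *Egr1* and *Ier2* having no entry. Capitals mark the match, and each window is written 5′ to 3′ on the strand of its gene.
Fos: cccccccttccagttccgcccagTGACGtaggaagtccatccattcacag
Fosb: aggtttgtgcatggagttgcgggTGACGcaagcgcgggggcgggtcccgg
Junb: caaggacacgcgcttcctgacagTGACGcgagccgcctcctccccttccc
Nr4a1: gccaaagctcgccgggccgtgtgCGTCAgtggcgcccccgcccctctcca
Dusp1: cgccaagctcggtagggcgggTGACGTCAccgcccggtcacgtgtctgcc
These windows lie at chr12:85473801-85473850 (plus strand) for *Fos*, chr7:19310079-19310128 (minus) for *Fosb*, chr8:84978828-84978877 (minus) for *Junb*, chr15:101266754-101266803 (plus) for *Nr4a1* and chr17:26508587-26508636 (minus) for *Dusp1*. In *Nr4a1* the match is on the opposite strand and reads CGTCA. Searched on both strands, TGACG was found in 6 of the 8 members with an entry, which were *Fos*, *Fosb*, *Junb*, *Egr2*, *Nr4a1* and *Dusp1*, against 23.05% of the 27025 genes with a promoter of the same length. The full TGACGTCA, which contains TGACG, was found in *Dusp1* alone, against 2.03% of genes. A CArG box, the letters that SRF binds, was found in *Egr2*, against 1.81%, and the EGR letters GCGNGGGCG were found in *Fosb* and *Nr4a1*, against 6.27%. The AP-1 letters TGANTCA were found in 0 of the 8, against 8.97%. Such matches describe letters in a window and were not tied to binding or to the levels measured. Sequence farther from the start, and the promoters of *Egr1* and *Ier2*, were not searched. A missing match, as of the CArG box in *Fos*, therefore holds for these windows only.

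Between NK cells and CD8+ T cells, 0 of the 10 genes passed the test, where a called gene had an adjusted p under 0.05 by edgeR and at least a 2-fold change. Over all 14062 genes tested, 11.1% were called, 6.1% with NK cells above and 5.04% with CD8+ T cells above. One member, *Nr4a1*, had an unadjusted p under 0.05, and DESeq2 called that member and no other, where it called 25.4% of all genes it tested. For *Egr2* and *Fosb* DESeq2 gave no adjusted p, and genes without it were counted as not called. The median log2 fold change of the members, NK over CD8+ T cells, was -0.22, beside 0.10 for all genes tested. Its sign rested on *Fosb*, since among genes with counts in both cell types the median was 0.02 for 9 members and -0.07 for all such genes. Groups did not overlap for 2 members, *Jund* and *Nr4a1*, both with NK cells above, and 41.6% of all genes tested had groups that did not overlap. Both shares were below those over all genes, but for 10 members 0 called is close to 11.1%, and neither difference was tested. Without any 1 of the NK libraries edgeR called between 475 and 485 genes in place of 1567, and the members called were again 0.

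*Nr4a1* had the largest difference with NK cells above, at 808 ± 561 normalised counts (SD, n = 3) against 22.8 ± 37.6 (SD, n = 3), a log2 fold change of 5.14 ± 1.93 (SE, adjusted p = 0.132, edgeR). Without CD8+ T cell library 2, the 1 library of its group above the floor of 3 counts, the adjusted p was 0.0213, and the call thus turned on that library. *Fos* had the largest difference with CD8+ T cells above among members with counts in both groups, at 2586 ± 2251 against 101 ± 169 (SD, n = 3 each), a log2 fold change of -4.67 ± 2.73 (SE, adjusted p = 0.286, edgeR). For *Fos* the spread between CD8+ T cell libraries was close to the difference between the means, while the spread between NK libraries was far smaller than that difference.

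*Egr2* and *Dusp1* also had higher means in CD8+ T cells, with log2 fold changes of -3.00 ± 2.17 (SE, adjusted p = 0.391, edgeR) and -2.14 ± 1.88 (SE, adjusted p = 0.487, edgeR). The sign of *Egr2* rested on CD8+ T cell library 1, without which its log2 fold change was 1.86. *Jun* had nearly the same mean in both cell types, with a log2 fold change of 0.02 ± 1.80 (SE), an error that leaves room for a large difference in either direction. Leaving out 1 library at a time moved *Jun* between -0.56 and 2.07.

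The errors were smallest for the genes present in every library. *Ier2* had a log2 fold change of 0.29 ± 0.29 (SE, adjusted p = 0.542, edgeR), *Junb* of -0.45 ± 0.48 (adjusted p = 0.570), *Egr1* of 0.17 ± 0.68 (adjusted p = 0.901) and *Jund* of 0.68 ± 0.70 (adjusted p = 0.558). With the exception of *Ier2* and *Jund*, these genes changed sign when 1 library was left out, *Junb* ranging from -0.79 to 0.10 and *Egr1* from -0.19 to 0.60. The standard errors also rest on information about the spread that edgeR shared across genes, so that of *Jund* does not follow from its own libraries alone. The spread over all genes was wide, with a common dispersion (the squared biological coefficient of variation) of 1.24 over both groups. That value describes all genes together and does not give the error of any 1 gene. Estimated apart from the fit, within each group alone, the biological coefficient of variation was 1.43 among CD8+ T cell libraries and 0.855 among NK libraries.

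**Figure D2:**
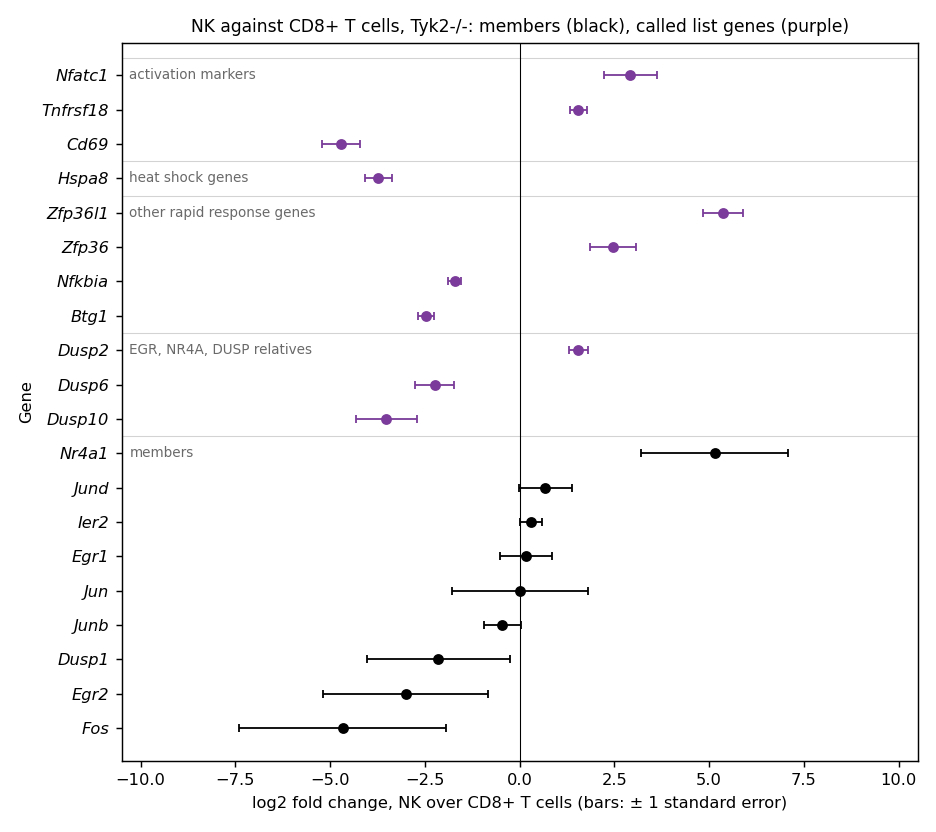
Log2 fold change, NK over CD8+ T cells, with bars of 1 standard error, for 9 of the 10 members (black, *Fosb* left out because it had counts in 1 library only) and for the called genes of the pathway lists (purple). The bars of *Fos*, *Egr2*, *Dusp1*, *Jun* and *Nr4a1* are longer than those of any called gene shown.

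Variation among libraries of the same cell type was the main feature of these genes in CD8+ T cells. Among genes that reached 100 normalised counts in at least 1 CD8+ T cell library, 4 of 8 members, *Fos*, *Jun*, *Egr2* and *Dusp1*, were at or under 3 counts in another, against 25.6% of the 10293 genes tested that reached that level. Among NK libraries 1 of 9 members, *Fos*, did so, against 5.82% of 10666 genes. The standard deviation of log2 (normalised count + 1) had a median of 3.32 over the members in CD8+ T cells, while it was 0.95 over all genes tested. In NK cells the medians were 0.48 and 0.50. Among the members, 7 were above the median of all genes in CD8+ T cells, as were 4 among NK libraries.

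*Fos* had a standard deviation of 6.32 in CD8+ T cells on that log2 scale, and only 0.0427% of genes tested had one at least as large. *Jun* followed at 6.02, *Dusp1* at 5.89 and *Egr2* at 5.10, and values this large were found in 0.156%, 0.256% and 3.01% of genes tested. These shares are over genes of all levels, not of like abundance. With a library at 1 count or none, a value this large also requires a high level in another library, so the shares reflect level as well as spread. At the other end, *Ier2* at 0.40 and *Jund* at 0.53 in CD8+ T cells varied less than most genes did. In NK cells *Fos* again had the widest spread of the members at 4.14, matched by 1.03% of genes tested, while *Jund*, at 0.021, and *Junb*, at 0.15, varied less than most genes did. Whether a gene at 1 count in such a library was absent from the cells or lost from a 500 pg input cannot be told apart, nor, in bulk RNA, can fewer cells with a transcript from less of it in each cell.

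**Figure D3:**
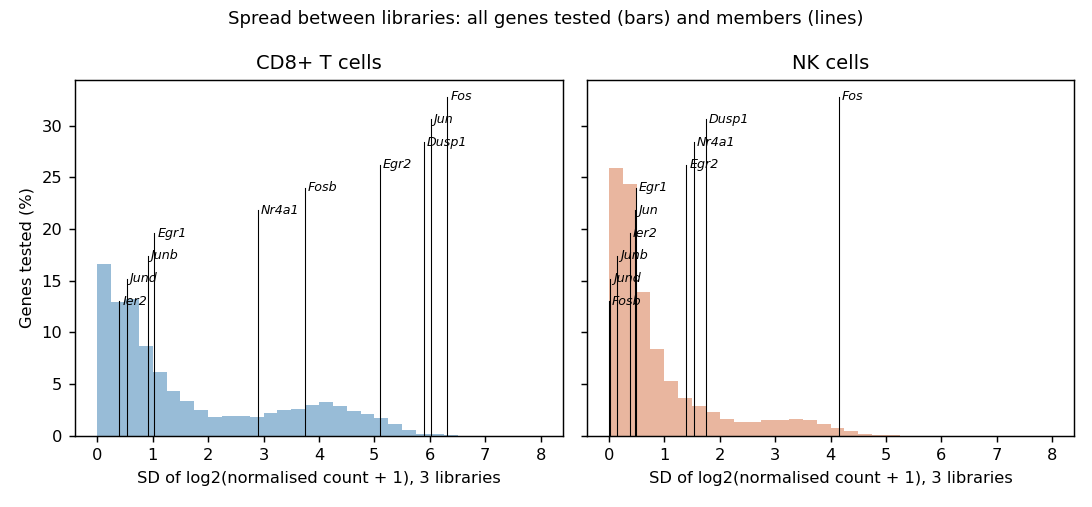
Standard deviation among the 3 libraries of log2 (normalised count + 1), shown as a histogram of all genes tested with vertical lines for the members, CD8+ T cells and NK cells in separate panels. The lines of *Fos*, *Jun*, *Dusp1* and *Egr2* stand at the far right in CD8+ T cells, between 5.10 and 6.32, while in NK cells only *Fos* lies above 4.

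Several members were highest in the same library. In CD8+ T cells 7 of the 10 had their highest value in library 1, where 29.5% of all genes tested had theirs, and 4 (*Fos*, *Jun*, *Junb* and *Dusp1*) ranked library 1 above library 2 above library 3, an order held by 14.5% of genes tested. *Jund* had the opposite order and was highest in library 3. In NK cells 7 of the 9 members with a count were highest in library 2, as were 33.7% of all genes tested. The exceptions were *Nr4a1*, highest in library 1, and *Egr1*, highest in library 3. The NK libraries ranked 2 above 1 above 3 for 5 members (*Fos*, *Jun*, *Junb*, *Egr2* and *Dusp1*), an order held by 16.3% of genes tested.

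The sum of B cell markers had the library order of *Fos*, *Jun*, *Junb* and *Dusp1* in both cell types, and of *Egr2* in NK cells only. *Fosb*, *Jund*, *Egr1*, *Nr4a1* and *Ier2* did not have that order in either cell type. The normalised counts of the 5 B cell markers summed to 9000, 4760 and 941 in CD8+ T cell libraries 1, 2 and 3 and to 257, 1521 and 7.19 in NK libraries 1, 2 and 3. In all, 4 of the 5 exceeded 3 counts in at least 1 library of CD8+ T cells, as did 2 of the 5 among NK libraries. *Cd79b*, a chain of the B cell receptor complex, made up most of each sum except that of NK library 3, with 4691, 3853 and 972 raw counts in CD8+ T cells against 263, 1813 and 2 in NK cells. The defining marker *Ms4a1*, the gene of CD20, had 405, 6 and 0 counts in CD8+ T cells against 0, 2 and 0 in NK cells, and *Cd79a*, the other chain of that complex, had 347, 17 and 0 and then 1, 1 and 0. In CD8+ T cell library 2, in which *Fos* was at 3641 normalised counts, *Cd79b* had 3853 raw counts and *Ms4a1* had 6. In NK library 2, in which *Fos* was at 296, *Cd79b* had 1813 and *Ms4a1* had 2. Erythroid and platelet markers were also highest in NK library 2, at 235 against 55.5 and 23.4. The part of these transcripts in the levels of *Fos*, *Jun*, *Junb* and *Dusp1* was not tested.

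**Figure D4:**
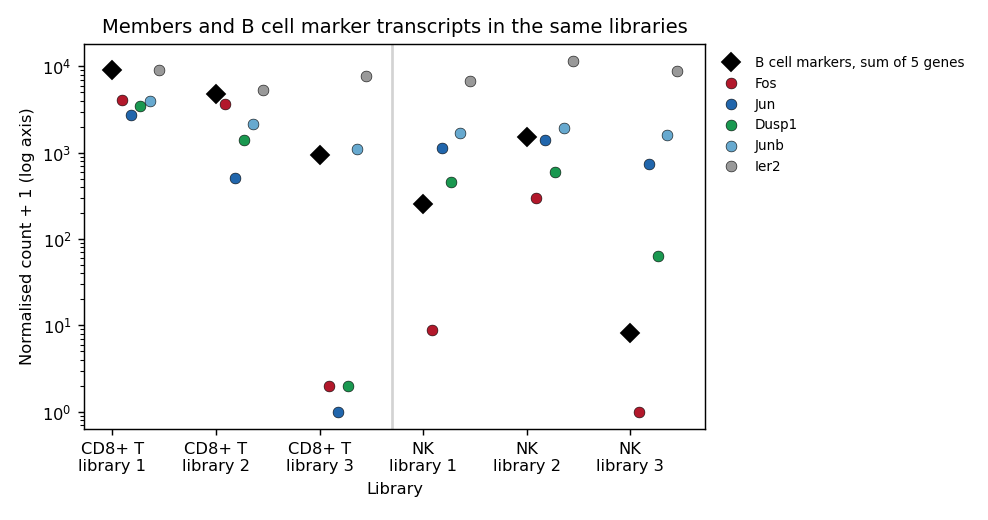
Normalised counts plus 1 (log axis) in each library of *Fos*, *Jun*, *Dusp1*, *Junb* and *Ier2*, with black diamonds for the summed B cell markers. Within each cell type *Fos*, *Jun*, *Dusp1* and *Junb* follow the order of the diamonds, which fall from 9000 to 941 in CD8+ T cells and are highest at 1521 in NK library 2, whereas *Ier2* does not. *Fosb*, *Jund*, *Egr1*, *Egr2* and *Nr4a1* are not drawn, and none of them has that order in both cell types.

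Per length of transcript, the order of the members was led by *Ier2* in both cell types. Mean RPKM (reads scaled by exon length and library size) in CD8+ T cells was 167 ± 43.8 for *Ier2*, 45.8 ± 27.3 for *Junb*, 42.4 ± 36.9 for *Fos*, 23.8 ± 25.7 for *Dusp1*, 11.7 ± 15.7 for *Jun*, 9.62 ± 16.1 for *Egr2*, 5.90 ± 2.25 for *Jund*, 4.91 ± 2.78 for *Egr1*, 0.294 ± 0.486 for *Nr4a1* and 0.273 ± 0.473 for *Fosb* (SD, n = 3). Of the neighbours in that order, the libraries of *Ier2* and *Junb* and those of *Egr1* and *Nr4a1* did not overlap, and all other neighbours did. In NK cells mean RPKM was 205 ± 52.8 for *Ier2*, 33.5 ± 3.53 for *Junb*, 11.8 ± 3.61 for *Jun*, 10.4 ± 7.24 for *Nr4a1*, 9.46 ± 0.138 for *Jund*, 5.51 ± 1.90 for *Egr1*, 5.39 ± 4.00 for *Dusp1*, 1.66 ± 2.77 for *Fos* and 1.20 ± 1.23 for *Egr2* (SD, n = 3), and *Fosb* was at 0 in every library. *Ier2* and *Junb*, *Junb* and *Jun*, *Jund* and *Egr1*, and *Egr2* and *Fosb* were the neighbours that did not overlap. *Nr4a1* stood near the bottom of the order in CD8+ T cells and between *Jun* and *Jund* in NK cells, while *Fos* stood next to *Junb* in CD8+ T cells and near the bottom in NK cells.

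The makeup of the AP-1 pool differed between libraries in its FOS side more than in its JUN side. The FOS family (*Fos*, *Fosb*, *Fosl1* and *Fosl2*) summed to 67.8, 60.7 and 0.0159 RPKM in CD8+ T cell libraries 1, 2 and 3 and to 3.36, 6.83 and 0.761 in NK libraries 1, 2 and 3. *Fos* made up nearly all of it in CD8+ T cells, whereas *Fosl2* led in NK libraries 1 and 3 at 3.23 and 0.761 RPKM. The JUN family (*Jun*, *Junb* and *Jund*) summed to 109, 51.5 and 29.8 RPKM in CD8+ T cells against 53.9, 62.2 and 48.2 in NK cells, so that JUN transcripts were found in every library and the groups overlapped. FOS transcripts were 38.4%, 54.1% and 0.0533% of FOS and JUN together in CD8+ T cells against 5.86%, 9.90% and 1.56% in NK cells. *Junb* was the leading JUN gene in all 6 libraries, with 69.1%, 79.2% and 71.7% of the JUN family in CD8+ T cells against 60.0%, 60.2% and 63.6% in NK cells. Those shares did not overlap between the cell types, and the difference was not tested.

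**Figure D5:**
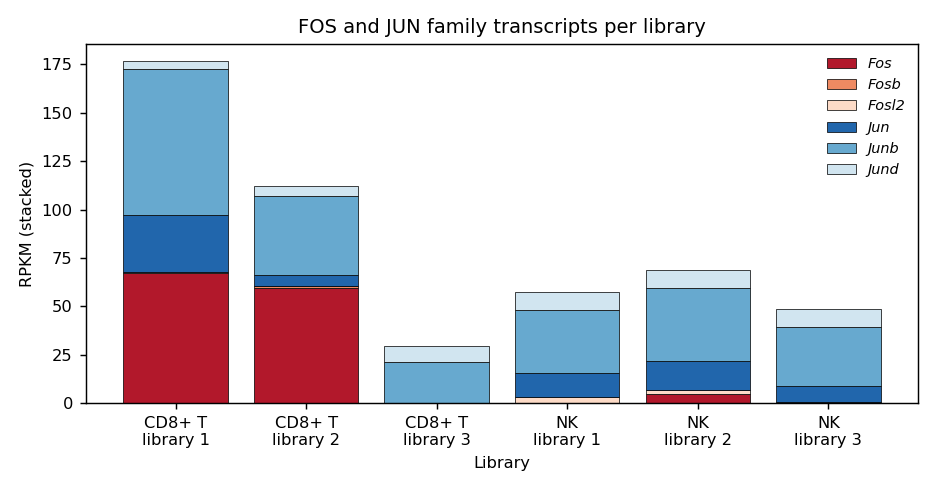
RPKM of the FOS and JUN genes in each library, stacked by gene, with 3 CD8+ T cell and 3 NK libraries. *Junb* is the largest JUN part in every bar, and the FOS part runs from 67.8 and 60.7 to 0.0159 among the CD8+ T cell libraries and stays at or below 6.83 in NK cells.

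The genes around the members in the same pathway were read from the same fit, and their counts stand beside 11.1% called by edgeR and 25.4% called by DESeq2 over all genes tested. Of the partners of AP-1, 8 of 10 were tested and 0 were called by edgeR, with 1 at an unadjusted p under 0.05 and 2 called by DESeq2. Without CD8+ T cell library 2, edgeR called 1. Their median log2 fold change was 2.12, and 0.90 over the 6 of them with counts in both cell types, because *Atf3* and *Jdp2* had 0 counts in every CD8+ T cell library. In 3 of 8, *Jdp2* among them, the NK libraries lay above the CD8+ T cell libraries, as they did for 25.5% of all genes tested. *Batf*, the AP-1 factor of effector T cells and the most abundant of them, measured 833, 505 and 1421 normalised counts in CD8+ T cells against 1034, 802 and 797 in NK cells. These values overlapped, with a log2 fold change of -0.07 ± 0.53 (SE).

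Of the relatives of the EGR, NR4A and DUSP members, 12 of 13 were tested, 3 were called, 1 with NK cells above and 2 with CD8+ T cells above, all of them phosphatases of the MAP kinases, and the median log2 fold change was 0.33. *Dusp2*, a nuclear phosphatase of activated lymphocytes, was at 4852, 2942 and 3230 normalised counts in CD8+ T cells against 11390, 9893 and 10884 in NK cells, a log2 fold change of 1.54 ± 0.25 (SE, adjusted p = 0.0128, edgeR). *Dusp6*, a cytoplasmic phosphatase of ERK, measured 1017, 1128 and 1573 in CD8+ T cells against 299, 276 and 210 in NK cells, a log2 fold change of -2.24 ± 0.51 (SE, adjusted p = 0.0384, edgeR). *Dusp10*, which acts on p38 and JNK, measured 339, 1057 and 1674 and then 76.9, 105 and 85.4, a log2 fold change of -3.52 ± 0.81 (SE, adjusted p = 0.0399, edgeR). None of these 3 genes overlapped between the cell types, in contrast to *Dusp1*, and the count called fell to 0 without any 1 of the NK libraries and to 1 without CD8+ T cell library 3. Without the filter on low counts it was also 1, and DESeq2 called 5. *Nab1*, a corepressor of EGR proteins and the most abundant relative that was not called, had overlapping groups, at 416, 1378 and 2214 against 1046, 1392 and 701.

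Of the other rapid response genes, 26 of 27 were tested, 4 were called, 2 in each direction, and the median log2 fold change was 0.39. *Zfp36l1*, which codes for a protein that destabilises AU-rich messenger RNAs, those of many early genes included, stood at 235, 847 and 694 normalised counts in CD8+ T cells against 23597, 26005 and 23511 in NK cells (log2 fold change 5.36 ± 0.53 SE, adjusted p = 0.00211, edgeR). Its relative *Zfp36* measured 197, 899 and 377 against 2572, 2497 and 3015 (2.46 ± 0.60 SE, adjusted p = 0.0487). Both were higher in every NK library than in any CD8+ T cell library. *Nfkbia*, the inhibitor of NF-κB, measured 11426, 13023 and 12640 in CD8+ T cells against 3688, 3949 and 3693 in NK cells (-1.71 ± 0.17 SE, adjusted p = 0.00196, edgeR). *Btg1*, an antiproliferative gene of quiescent lymphocytes, measured 9964, 14094 and 11928 against 2122, 2378 and 1970 (-2.48 ± 0.22 SE, adjusted p = 0.00123). *Klf2*, a quiescence and migration factor, was the most abundant gene not called and was at 3728, 8347 and 4723 against 12992, 11802 and 12611, with an adjusted p of 0.0638. DESeq2 called 8 genes of this list, and edgeR called 7 without CD8+ T cell library 2 and 3 without CD8+ T cell library 1 or any 1 NK library.

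Kinases and transcription factors upstream of the members did not pass the test. All 25 were tested and 0 were called by edgeR, with 3 at an unadjusted p under 0.05 and 3 called by DESeq2, and the median log2 fold change was 0.02. Without any 1 of the CD8+ T cell libraries edgeR called 1. *Map2k2*, the ERK kinase MEK2 and the most abundant of them, measured 1708, 3369 and 6458 normalised counts in CD8+ T cells against 8208, 6802 and 7725 in NK cells. Its groups did not overlap, and the log2 fold change was 0.98 ± 0.47 (SE, adjusted p = 0.207, edgeR).

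Heat shock genes, which respond to stress on cells, were counted beside the members. Of 14 genes 13 were tested, 1 was called, with CD8+ T cells above, 7 had an unadjusted p under 0.05, and the median log2 fold change was -1.34. *Hspa8*, the constitutive chaperone HSC70, was at 65849, 66022 and 36697 normalised counts in CD8+ T cells against 4341, 5462 and 2907 in NK cells, a log2 fold change of -3.73 ± 0.35 (SE, adjusted p = 0.00189, edgeR). Of the 50-base stretches of *Hspa8*, 38.6% also occur in transcripts of other genes, so its level is uncertain. *Hsp90ab1*, a constitutive chaperone and the most abundant gene not called, measured 24030, 33941 and 38187 against 52051, 38918 and 38123, and its groups overlapped. *Dnajb1* and *Hspa1b*, stress-induced chaperone genes named after their values were seen, were lowest in library 3 of both cell types, which the labels do not link to each other. *Dnajb1* measured 26937, 24871 and 6827 against 6697, 7548 and 4168, and *Hspa1b*, which shares much of its sequence with *Hspa1a*, measured 220, 226 and 5.81 against 48.7, 76.2 and 0.899. *Hspa8*, *Hsp90aa1*, *Hspe1* and *Dnaja1* were also lowest in library 3 of both, but others of the list were not. *Hsf1* was highest in library 3 of both, *Bag3* in NK library 3 and *Hsp90ab1* in CD8+ T cell library 3. In NK cells *Hspd1* and *Dnajb4* were lowest in library 1, as was *Hsph1* in CD8+ T cells. The share of all genes lowest in library 3 of both was not counted. DESeq2 called 7 heat shock genes, and edgeR called 4 without CD8+ T cell library 3 and 2 without library 1 or library 2.

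Surface and nuclear markers of activation differed in both directions, with 11 of 12 tested, 3 called (2 with NK cells above and 1 below) and a median log2 fold change of 0.39. *Cd69*, an early activation antigen that holds lymphocytes in tissue, measured 9719, 19202 and 5857 normalised counts in CD8+ T cells against 357, 451 and 515 in NK cells, a log2 fold change of -4.71 ± 0.51 (SE, adjusted p = 0.00321, edgeR). Its highest library was CD8+ T cell library 2, not library 1. *Nfatc1*, a calcium-regulated factor that pairs with AP-1, was at 3164, 2878 and 431 against 17104, 17084 and 14836 (2.92 ± 0.70 SE, adjusted p = 0.0452, edgeR), and *Tnfrsf18*, the receptor GITR, at 2311, 3228 and 2904 against 7251, 8743 and 8687 (1.55 ± 0.22 SE, adjusted p = 0.00813). Neither overlapped between the cell types. *Slc3a2*, the amino acid transporter chain CD98, had almost the same mean in both, with a log2 fold change of 0.00 ± 0.25 (SE). Without NK library 2 or NK library 3, 1 gene of this list was called.

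Among genes outside these lists, those whose profile over the 6 libraries was closest to that of *Fos*, by the root mean square difference of centred log2 values, were *4930417O13Rik* at 1.22 and *Ly6g5b* at 1.22. *4930417O13Rik* had 434, 296 and 0 raw counts in CD8+ T cells against 2, 42 and 0 in NK cells, and *Ly6g5b* had 551, 201 and 0 and then 1, 85 and 0. Both were highest in CD8+ T cell library 1 and NK library 2 and had 0 counts in library 3 of both cell types, where *Fos* had 1 and 0. Since they were picked for likeness to *Fos* over these same libraries, that pattern follows from the choice.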

How the data were processed

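Total RNA from sorted splenic cells (3 *Tyk2*-/- NK and 3 *Tyk2*-/- CD8+ T cell libraries) was made into cDNA libraries by the Smart-seq2 and Nextera XT protocols. The authors trimmed reads with Trimmomatic 0.32, aligned them to GRCm38 with STAR 2.7.1, and deposited raw counts per Ensembl gene. Columns of other groups were left out, 98 of 104, because no sample described here could be tied to them. Among those, 3 columns of wild-type CD8+ T cells stand for 2 labelled samples.

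Counts were scaled by TMM and tested with edgeR 4.0.16 (quasi-likelihood F test, robust, no covariate, R 4.3.3), with Benjamini-Hochberg adjustment over the 14062 genes whose normalised counts averaged 10 or more. A gene was called at an adjusted p under 0.05 and a log2 fold change of 1 or more in either direction, and fold changes are NK over CD8+ T cells. DESeq2 1.42.0, RLE factors, no filter, no fold threshold and leaving out each library were alternatives. The fit was checked on simulated data. P-values measure the spread between these libraries, and floors of 3 counts cover counting error only, since reads carried no molecular identifiers. RPKM used exon lengths of GENCODE vM21 (GRCm38), while the authors counted with an Ensembl annotation. Named genes were the members, every called gene and the most abundant gene not called of each pathway list, *Tyk2*, markers of other cells and the 3 genes closest to *Fos*, of which 1 is not reported here. The remaining markers and neighbours were named after their values were seen. The members and lists were chosen with earlier results of these data known.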

Additional observations from a re-analysis of the deposited data

How the results depend on the processing

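The number of genes called moved with the tool and the libraries. DESeq2 called 3537 genes in all, 1 member, 2 AP-1 partners, 5 relatives of the EGR, NR4A and DUSP genes, 8 other rapid response genes, 3 upstream genes and 7 heat shock genes. Without the filter 1 relative was called. Leaving out 1 library at a time gave 475 to 1876 genes in all, 0 to 1 members, 0 to 1 AP-1 partners, 0 to 4 relatives, 3 to 7 other rapid response genes, 0 to 1 upstream genes, 1 to 4 heat shock genes and 1 to 3 activation markers. Counts over all genes were lowest without an NK library, and the cause was not tested. The log2 fold change crossed 0 when a library was left out for *Jun* (-0.56 to 2.07), *Junb* (-0.79 to 0.10), *Egr1* (-0.19 to 0.60), *Egr2* (-4.29 to 1.86), *Batf* (-0.33 to 0.40), *Nab1* (-0.77 to 0.21) and *Slc3a2* (-0.16 to 0.26). Chosen after seeing the data, medians over genes with counts in both cell types turned the members' median log2 fold change from -0.22 to 0.02, kept the sign of those of the 6 other lists and turned that of all genes tested from 0.10 to -0.07. *Btg1*, *Cd69*, *Nfkbia*, *Hspa8* and *Zfp36l1* were called without each library in turn, while *Dusp10*, *Zfp36* and *Nfatc1* lost their call in 5 of 6 such fits, *Dusp6* in 4, *Dusp2* in 3 and *Tnfrsf18* in 2. No paired analysis was possible because the NK and CD8+ T cell samples share no replicate number in the labels and the columns carry no label number. For *Fosb* and the members at 1 count or none, 3 counts is the floor. CD8+ T cell library 3, in which *Fos* and *Dusp1* had 1 count and *Jun* 0, was the deepest of its group at 26144478 counts.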
